A study of Schmidtea mediterranea with 11 samples.

Results

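A small set of 74 transcripts was more abundant in every knockdown library of a planarian RNA interference (RNAi) experiment than in any control library. The knockdowns were of bruli, of the mbnl genes, of Smed-H2B and of Smedwi-2. Levels were given in TPM, the length-scaled share of a library's transcripts and handled as log2(TPM+1). A transcript entered the set if its mean over the 11 libraries was 1.5 or more on this scale and if each of the 8 knockdown libraries exceeded the highest of the 3 control libraries by more than 0.2. Of 26562 transcripts in the table, 15476 had a mean of 1.5 or more, and the 74 were 0.478% of these. The same rule turned over, with every knockdown library below the lowest control by more than 0.2, held for 7 transcripts, or 0.0452%. The set was thus chosen by its measured TPM in all 11 libraries, knockdown against control, so the levels relative to control are given as a description without a test.

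All libraries were made from polyadenylated RNA of whole adult worms of Schmidtea mediterranea, strain Berlin-1, an asexual line that the study derived from a single individual. Control worms received double-stranded RNA of gfp, a sequence the animal lacks, bruli(RNAi) worms received that of Smed-bruno-like, and mbnl(RNAi) worms received a mix against Smed-mbnl-1 and the Smed-mbnl-like genes. Each of these 3 groups gave 1 library at day 20, 1 at day 25 and 1 at day 30 after RNAi. For Smed-H2B(RNAi) 1 library was made and for Smedwi-2(RNAi) another, and the labels give no day for either. The number of worms per library is not given in the sources used here, and the 3 libraries of a group differ in day, so their spread joins time with the variation between worms. The Smed-H2B and Smedwi-2 libraries could differ from the rest in day as well as in the gene targeted, and the 2 cannot be told apart.

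Planarians replace their tissues from neoblasts, the dividing stem cells of the adult worm, whose progeny pass through early postmitotic stages before they mature. Bruli is a CELF family RNA binding protein enriched in neoblasts, and muscleblind (MBNL) proteins are splicing regulators that act against CELF proteins in planarians and in vertebrates. A histone H2B transcript of neoblasts is needed to maintain these cells, while SMEDWI-2, a PIWI protein, is needed for neoblast progeny to replace lost tissue. RNAi against these genes therefore disturbs the stem cell system at different points, and the transcripts described below are those that stood above control after every one of them.

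The targeted transcripts analysed here, apart from mbnl-like-3, were lower in their own libraries than in the controls. The bruli transcript was at 3.33 to 6.33 TPM after bruli knockdown and at 82.9 to 84.9 TPM in the controls, the smedwi-2 transcript was at 11.6 TPM in the Smedwi-2 library and at 108 to 115 TPM in the controls, and mbnl-1 was at 23.4 to 28.9 TPM after mbnl knockdown against 50.2 to 53.04 TPM in the controls. The transcript of mbnl-like-1 was at 3.31 to 4.69 TPM after mbnl knockdown against 17.8 to 18.7 TPM in the controls, and that of mbnl-like-2 at 7.63 to 13.2 TPM against 29.5 to 32.5 TPM. The weakly expressed mbnl-like-3 transcript was at 1.62 to 2.81 TPM after mbnl knockdown and at 2.03 to 3.03 TPM in the controls, and these values overlapped. Lower levels were not confined to the targeted libraries. The bruli transcript was at 19.4 TPM in the Smed-H2B library and at 82.4 TPM in the Smedwi-2 library. The smedwi-2 transcript was at 45.2 to 59.9 TPM after bruli knockdown and at 57.9 TPM in the Smed-H2B library. After mbnl knockdown bruli was at 96.7 to 113 TPM and smedwi-2 at 117 to 129 TPM. The Smed-H2B transcript was not analysed here. The neoblast marker smedwi-1 separated the knockdowns: it was at 193 to 212 TPM in the controls, at 8.63 to 26.8 TPM after bruli knockdown and at 51.2 TPM in the Smed-H2B library, but at 212 to 242 TPM after mbnl knockdown and at 260 TPM in the Smedwi-2 library. The other neoblast marker, pcna, was likewise at 3.43 to 5.91 TPM after bruli knockdown and at 16.7 TPM in the Smed-H2B library, and at 60.2 to 92.0 TPM after mbnl and Smedwi-2 knockdown, beside 55.2 to 56.9 TPM in the controls. The rule itself placed the 74 transcripts above control in all of these libraries, whatever the level of the neoblast markers. The early progeny marker prog-1 followed the same split, at 268 to 391 TPM in the controls, 36.6 to 141 TPM after bruli knockdown and 87.1 TPM in the Smed-H2B library, and at 323 to 481 TPM after mbnl and Smedwi-2 knockdown. The part of these cell types in the levels of the 74 was not tested. None of the 7 neoblast, neoblast subclass and early progeny markers looked at (smedwi-1, pcna, prog-1, prog-2-1, prog-1-1, p53 and soxP-2) was among the 74.

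The deposited table names transcripts by their assembly number alone. A list of RNA binding proteins from the study names 2 of the 74 by their best human match, and the other 72 carry no gene name or role here. No sequences are shown. Among the transcripts of this list with a mean of 1.5 or more, 2 of 285 RNA binding proteins belonged to the set (0.702%, beside 0.478% of all transcripts). Both were among the 50 DDX and DHX helicases, the ATP-driven enzymes that remodel RNA and its protein complexes. The median of the helicase list was below control after bruli and Smed-H2B knockdown and slightly above it after mbnl and Smedwi-2 knockdown, as its difference from the control mean was -0.33 after bruli, 0.13 after mbnl, -0.39 after Smed-H2B and 0.06 after Smedwi-2 knockdown, beside 0.00494, 0.11, 0.02 and 0.03 over all transcripts. Of 42 RNA binding proteins higher in differentiated cells than in neoblasts, 1 was in the set. None of 15 neoblast-enriched RNA binding proteins, 28 SR and hnRNP proteins, 77 core spliceosome components and 11 translation factors was in it. With 0.478% of all transcripts in the set, lists of these sizes would hold few members or none in any case.

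Most of the 74 were well expressed in control worms. Their mean control level had a median of 28.9 TPM and ran from 0.908 to 770.4 TPM, and 73 of the 74 had a control mean of 1.5 or more on the log2 scale. The exception, comp12455_c0_seq1, passed the filter on low values only through its knockdown libraries. The margin of the lowest knockdown library over the highest control had a median of 0.26 and exceeded 0.3 in 22 transcripts, with a widest value of 0.66. In 44 transcripts it was larger than the whole range of the 3 controls. The rule chose on this margin and so favours close controls, and the count follows in part from that choice. The median range of the 3 controls was 0.23 over the 74 and 0.28 over all transcripts with a mean of 1.5 or more. At the threshold, the 3 transcripts just inside had margins of 0.202, 0.202 and 0.202, and the 3 just outside had 0.199, 0.198 and 0.197.

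Per library, the 74 transcripts stood lowest at day 20 of both time courses. The median difference from the control mean, on the log2(TPM+1) scale, was 0.44 in the bruli library of day 20, 0.82 at day 25 and 0.74 at day 30. After mbnl knockdown it was 0.48 at day 20, 0.68 at day 25 and 0.74 at day 30. It was 0.81 in the Smed-H2B library and 0.76 in the Smedwi-2 library. In whole-worm RNA, more cells of a type and more RNA per cell cannot be told apart, nor can fewer cells and less RNA. Over all transcripts the medians lay between -0.02 and 0.03 in the bruli, Smed-H2B and Smedwi-2 libraries, while the mbnl libraries had 0.06, 0.13 and 0.15 at days 20, 25 and 30.

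**Figure D1:**
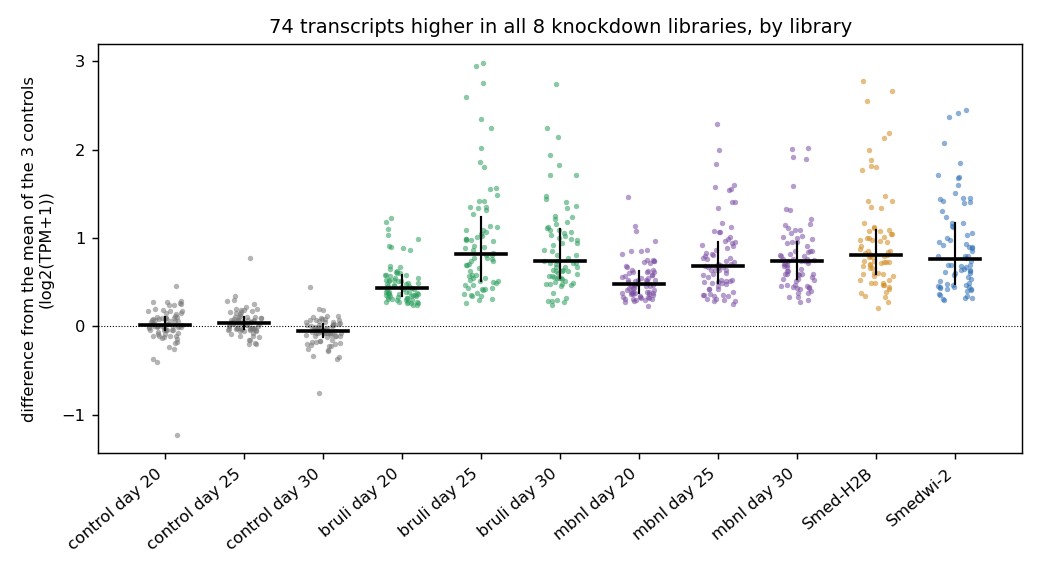
Difference of each of the 74 transcripts from the mean of the 3 control libraries, in log2(TPM+1), for each library (points, 1 per transcript; thick bars, medians; thin bars, quartiles). By construction all knockdown points lie above the controls; the medians are 0.44 and 0.48 at day 20 of the bruli and mbnl courses and 0.68 to 0.82 in the other 6 knockdown libraries.

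Counts of transcripts raised by at least 1 on the log2 scale were also lowest at day 20. After bruli knockdown there were 4 of the 74 at day 20, 27 at day 25 and 25 at day 30, beside 0.22%, 0.93% and 0.918% of all transcripts. After mbnl knockdown there were 3, 16 and 17, beside 0.336%, 1.21% and 1.14%. The Smed-H2B library had 24 (1.29% of all) and the Smedwi-2 library had 25 (2.32% of all).

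Summed over the 74, the level was 4312 to 4824 TPM in the controls. It was 6747, 11177 and 9566 TPM after bruli knockdown at days 20, 25 and 30, and 6600, 8606 and 8210 TPM after mbnl knockdown. The sum was 11201 TPM in the Smed-H2B library and 9864 TPM in the Smedwi-2 library. A pair of transcripts, comp162_c0_seq1 and comp284_c0_seq1, made up 22.6% to 27.3% of this sum in the controls and up to 42.6% of it, in the bruli library of day 25. Without them the sum was 3336 to 3570 TPM in the controls and 4681 to 6867 TPM in the knockdown libraries, where it was again lowest in the bruli and mbnl libraries of day 20.

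Size differed between groups of control level, but in no steady order. The 15 transcripts under 10 TPM in the control mean had a median difference of 1.07 in the bruli library of day 25 and of 1.13 in the Smedwi-2 library. The 49 transcripts from 10 to 100 TPM had 0.77 and 0.65 in these libraries, and the 10 above 100 TPM had 0.97 and 1.41. From the lowest to the highest group, the medians were 0.51, 0.39 and 0.42 in the bruli library of day 20. They were 0.97, 0.80 and 1.26 in the Smed-H2B library. The control mean that set the groups was also the one subtracted, and the pseudocount understates differences in the lowest group.

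The step from day 20 to day 25 carried most of the change within the bruli time course. Of the 74 transcripts, 71 were higher at day 25 than at day 20 after bruli knockdown, with a median step of 0.39, while 51.6% of all transcripts went up. From day 25 to day 30 only 24 of the 74 went up, with a median of -0.08 (39.1% of all). After mbnl knockdown 60 of the 74 went up from day 20 to day 25, with a median of 0.18, beside 62.9% of all transcripts, and 38 went up from day 25 to day 30, with a median of 0.01 (53.4% of all). In the controls 37 and 24 of the 74 went up at these steps, with medians of -0.00135 and -0.08, beside 63.7% and 46.9% of all transcripts.

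Day 20 was the lowest of the 3 bruli libraries for 65 transcripts (34.1% of all transcripts) and the lowest of the 3 mbnl libraries for 57 (50.8% of all), and it was the lowest in both courses for 51 (20.2% of all). The highest bruli library was that of day 25 for 50 transcripts (36.3% of all) and that of day 30 for 23 (26.0% of all). After mbnl knockdown the highest was day 25 for 35 (35.7% of all) and day 30 for 34 (42.2% of all). Each day of each group was 1 library, so a step between days has no replicate and was not tested. With every library centred on its own median, 71 of the 74 still went up from day 20 to day 25 after bruli knockdown (48.8% of all), and 51 after mbnl knockdown (47.2% of all).

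**Figure D2:**
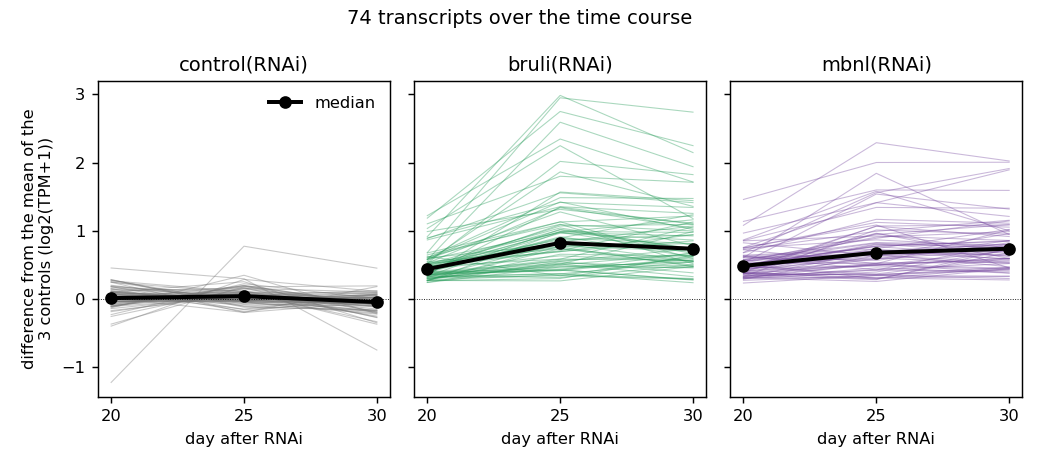
Difference of the 74 transcripts from the mean of the 3 control libraries, in log2(TPM+1), against day after RNAi in control, bruli and mbnl worms (thin lines, transcripts; black line, median). The bruli median goes from 0.44 to 0.82 and 0.74, the mbnl median from 0.48 to 0.68 and 0.74, and the control median stays within 0.05 of 0.

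Set against the control of the same day, the medians were 0.40, 0.80 and 0.78 for bruli and 0.42, 0.66 and 0.77 for mbnl at days 20, 25 and 30. The study used a step of 0.7 over the control of the day as its threshold for transcripts that fell. Its upward counterpart held at day 20 for 10 of the 74 after bruli and 13 after mbnl knockdown, beside 4.13% and 6.45% of all transcripts. It held for 43 and 30 at day 25 (2.8% and 2.89% of all) and for 42 and 47 at day 30 (4.04% and 4.9% of all).

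For any single transcript, the lowest of the 8 knockdown libraries was most often one of day 20. It was the bruli library of day 20 for 30 transcripts and the mbnl library of day 20 for 25, beside 13.4% and 10.9% of all transcripts. The margin that admitted a transcript was thus set by a day 20 library in 55 of the 74. The highest library was that of bruli at day 25 for 24 transcripts (7.57% of all), Smed-H2B for 17 (10.2% of all), Smedwi-2 for 17 (15.01% of all) and bruli at day 30 for 6 (6.85% of all). It was that of mbnl at day 25 for 5 and at day 30 for 5 others (14.4% and 18.1% of all).

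No member of the set differed by as much as 1 on the log2 scale between the Smed-H2B and Smedwi-2 libraries. The rule required both libraries to exceed control, which narrows such differences, and the share over all transcripts was not counted. Smed-H2B was the higher of the pair for 41 of the 74, with a median difference of 0.11 and a range from -0.85 to 0.97. Over all transcripts 50% were higher in the Smed-H2B library. The Smed-H2B library was above all 3 mbnl libraries for 44 transcripts (24.1% of all) and above all 3 bruli libraries for 24 (28.8% of all). The Smedwi-2 library was above all 3 mbnl libraries for 40 (23.2% of all) and above all 3 bruli libraries for 24 (39.1% of all). These are single libraries without replicates, and no test was made.

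The difference between bruli and mbnl knockdown was tested with limma over the 15476 transcripts, with day as a block and Benjamini-Hochberg adjustment. The difference itself uses no control library, but the 3 controls were in the fit and entered its estimate of the spread. The rule required both knockdowns to exceed control but set no order between them. It did use these same bruli and mbnl libraries, and it left out every transcript below control after either knockdown. The counts among the 74 are thus shaped by that choice, and those over all transcripts are not. Of the 74 transcripts 2 were higher after bruli and 2 were higher after mbnl knockdown at an adjusted p under 0.05. Over all transcripts 5.24% were higher after bruli and 20.1% were lower after bruli knockdown. At an unadjusted p under 0.05 the counts among the 74 were 7 and 6, beside 9.07% and 28.6% of all transcripts. With only the bruli and mbnl libraries in the fit, 7 of the 74 were called higher and 2 lower after bruli knockdown, and without the control of day 20 the counts were 10 and 3. The median difference, bruli minus mbnl, was 0.06 over the 74 and -0.11 over all transcripts, and the values of the 74 ran from -0.78 to 0.97. With libraries centred on their medians, the median over all transcripts was 0.07 and that over the 74 was 0.23, and 7 of the 74 were higher and 1 lower after bruli knockdown. Over all transcripts, the calls were 811 higher and 3105 lower as deposited, 2157 and 1644 after median centring, and 1494 and 1927 after quantile normalization.

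By day, bruli was the higher knockdown for 32 of the 74 at day 20, for 56 at day 25 and for 49 at day 30, beside 42.3%, 38.3% and 31.7% of all transcripts. The median difference was -0.03, 0.18 and 0.08 at these days. With median centring bruli was the higher for 56, 65 and 64 of the 74, beside 57.9%, 58.1% and 54.7% of all transcripts, so the balance at day 20 turned with the scaling for the 74, and that of all transcripts turned on all 3 days. All 3 bruli libraries lay above all 3 mbnl libraries for 3 transcripts (9.34% of all), and all 3 lay below for 3 others (30.0% of all).

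A test of whether the slope over the 3 days differed between bruli and mbnl knockdown called none of the 74 and none of the 15476 transcripts in limma at an adjusted p under 0.05. At an unadjusted p under 0.05 it gave 2 of the 74 in each direction, beside 1.69% of all transcripts with the higher and 5.98% with the lower slope after bruli knockdown. This fit had 3 residual degrees of freedom. On simulated data it found 44% of transcripts whose slopes differed by 1 per 5 days and 3% of those that differed by 0.5, so small differences in slope were not detectable. The simulated noise held no variation shared by day and took its size from the fit with day as a block. These shares may therefore be too high for the slope fit to the real libraries.

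**Figure D3:**
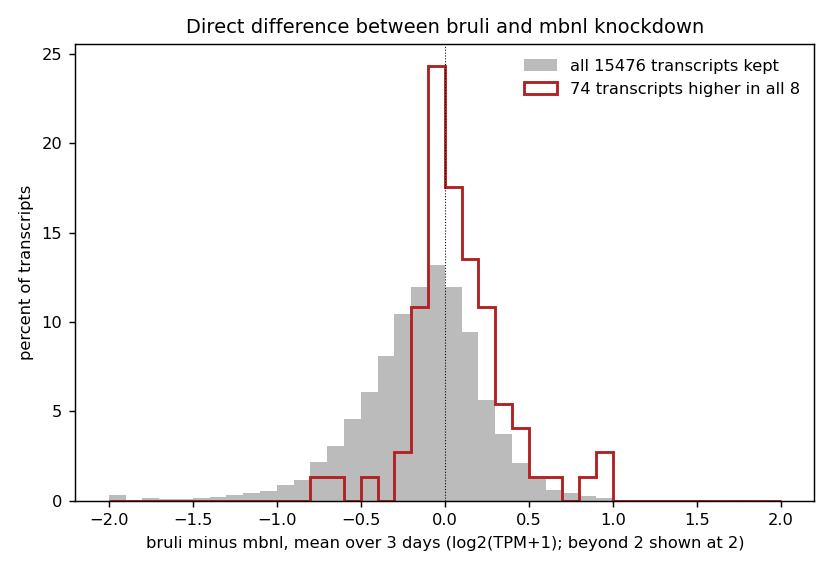
Share of transcripts, in percent, by their difference between bruli and mbnl knockdown (mean over the 3 days, log2(TPM+1)), for all 15476 transcripts (grey) and for the 74 (red line). The 74 span -0.78 to 0.97 with a median of 0.06, beside -0.11 over all.

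Among the unnamed transcripts past the test, comp8036_c0_seq1 had the larger of the 2 differences in favour of bruli. Its level was 4.26, 6.32 and 3.95 TPM in the controls, 12.4, 28.2 and 17.9 TPM after bruli knockdown and 8.64, 9.49 and 8.78 TPM after mbnl knockdown at days 20, 25 and 30. It was 19.0 TPM in the Smed-H2B and 23.2 TPM in the Smedwi-2 library, within the range of the bruli libraries and above all mbnl libraries. The bruli and mbnl values did not overlap, and the difference was 0.97 (SE 0.18, limma adjusted p = 0.00515).

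The other transcript higher after bruli than after mbnl knockdown, comp9638_c0_seq1, was at 10.8, 10.2 and 9.90 TPM in the controls, 16.2, 23.7 and 16.0 TPM after bruli and 13.6, 13.0 and 13.2 TPM after mbnl knockdown. Its Smed-H2B and Smedwi-2 values, 21.1 and 17.2 TPM, again lay in the bruli range. The difference of 0.44 (SE 0.14, limma adjusted p = 0.0443) was close to the threshold, and without the bruli library of day 25 it was 0.25 with an adjusted p of 0.23.

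In the opposite direction, comp12720_c0_seq1 was nearly constant in the controls, at 6.02, 6.15 and 5.91 TPM. It was at 7.98, 9.52 and 13.6 TPM after bruli knockdown and at 14.5, 20.3 and 20.2 TPM after mbnl knockdown, with 13.1 TPM in the Smed-H2B and 15.6 TPM in the Smedwi-2 library. Every mbnl value was above every bruli value, and the difference, bruli minus mbnl, was -0.78 (SE 0.15, limma adjusted p = 0.00649).

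The abundant transcript comp238_c1_seq1 was at 351, 434 and 354 TPM in the controls and at 527, 567 and 560 TPM after bruli knockdown. After mbnl knockdown it was at 625, 753 and 842 TPM, and it reached 853 TPM in the Smed-H2B and 1013 TPM in the Smedwi-2 library. The bruli libraries were the lowest of the 8, and the difference from mbnl was -0.41 (SE 0.097, limma adjusted p = 0.0141). With median centring it was -0.24 with an adjusted p of 0.102, and without the bruli library of day 25 it was -0.38 with an adjusted p of 0.0854. It is the only one of the 74 that shares an assembly component number with another transcript of the table. No sequences were compared, so whether reads were split between the pair is unknown.

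The transcripts with names were both helicases with small differences from control. comp3817_c0_seq1, whose best human match is DDX3Y, a DEAD-box helicase of a family that acts in translation initiation, was at 42.4, 48.7 and 49.9 TPM in the controls. It was at 57.8, 66.7 and 75.1 TPM after bruli, at 63.6, 77.4 and 73.1 TPM after mbnl knockdown, at 84.5 TPM in the Smed-H2B library and at 72.0 TPM in the Smedwi-2 library. The bruli and mbnl values overlapped, with a difference of -0.10 (SE 0.074, limma adjusted p = 0.351) that turned to 0.07 with median centring.

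comp7940_c0_seq1 has DHX8 as its best human match, a DEAH-box helicase that in human cells and yeast releases spliced mRNA from the spliceosome. It was at 20.3, 20.4 and 21.9 TPM in the controls, 25.9, 30.2 and 26.4 TPM after bruli and 26.3, 28.4 and 30.3 TPM after mbnl knockdown. The Smed-H2B library had 26.8 TPM and the Smedwi-2 library had 29.3 TPM. All 8 knockdown values thus lay between 25.9 and 30.3 TPM, in a narrow band above the controls. The difference between bruli and mbnl was -0.04 (SE 0.0901, limma adjusted p = 0.776), and its sign turned with median centring (0.13).

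A further few transcripts were singled out after their values were seen, for the size or the shape of their profile. The widest margin over control belonged to comp1787_c0_seq1, which was steady at 27.8, 27.6 and 26.6 TPM in the controls. It was at 44.3 TPM in the bruli library of day 20 but at 218 and 188 TPM at days 25 and 30. After mbnl knockdown it was at 50.6, 83.5 and 55.6 TPM, and it was at 165 and 149 TPM in the Smed-H2B and Smedwi-2 libraries. The TPM ratio to the control mean was thus 1.62 at day 20 and 7.97 at day 25 of the bruli course, and no more than 3.06 after mbnl knockdown. The difference between bruli and mbnl missed the threshold (0.97, SE 0.37, limma adjusted p = 0.0868), with mbnl the higher at day 20.

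comp284_c0_seq1 was also highest in the bruli library of day 25, at a higher level. It was at 392, 344 and 300.1 TPM in the controls, at 648, 2726 and 1524 TPM after bruli and at 523, 1234 and 662 TPM after mbnl knockdown. It was at 1511 TPM in the Smed-H2B and at 1100 TPM in the Smedwi-2 library. Both time courses peaked at day 25, when the bruli library reached 7.89 times the control mean. The bruli library of day 30 was at 4.41 times the control mean, beside 6.88 times for comp1787_c0_seq1.

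The weakest transcript in control worms, comp12455_c0_seq1, was at 1.01, 0.716 and 0.998 TPM there. It was at 1.83, 10.5 and 6.30 TPM after bruli knockdown, at 3.02, 8.32 and 6.73 TPM after mbnl knockdown, at 11.1 TPM in the Smed-H2B library and at 5.16 TPM in the Smedwi-2 library. It too was lowest at day 20 and highest at day 25 in both courses. At this level the TPM values may rest on few reads, and TPM does not show how many.

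The most abundant transcript, comp162_c0_seq1, was at 927, 708 and 676 TPM in the controls. It was at 1418, 2036 and 1934 TPM after bruli, at 1220, 1714 and 1647 TPM after mbnl knockdown, at 2823 TPM in the Smed-H2B and at 2090 TPM in the Smedwi-2 library. Here the Smed-H2B library was the highest of the 11, day 20 was the lowest in both courses, and the controls were not steady but highest at day 20.

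A pair of other transcripts ran parallel to comp162_c0_seq1. comp442_c0_seq1 went from 109 to 148 TPM in the controls to 204 to 429 TPM in the knockdown libraries, and comp1017_c0_seq1 went from 97.1 to 134 TPM to 204 to 451 TPM. The ratio of comp162_c0_seq1 to comp442_c0_seq1 stayed between 5.97 and 6.64 over the 11 libraries, and that of comp162_c0_seq1 to comp1017_c0_seq1 stayed between 5.80 and 6.96. Their log2 levels correlated with r from 0.993 to 0.999 over the 11 libraries, which share the rule that chose these transcripts, and the median r over the 2701 pairs of the 74 was 0.835.

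**Figure D4:**
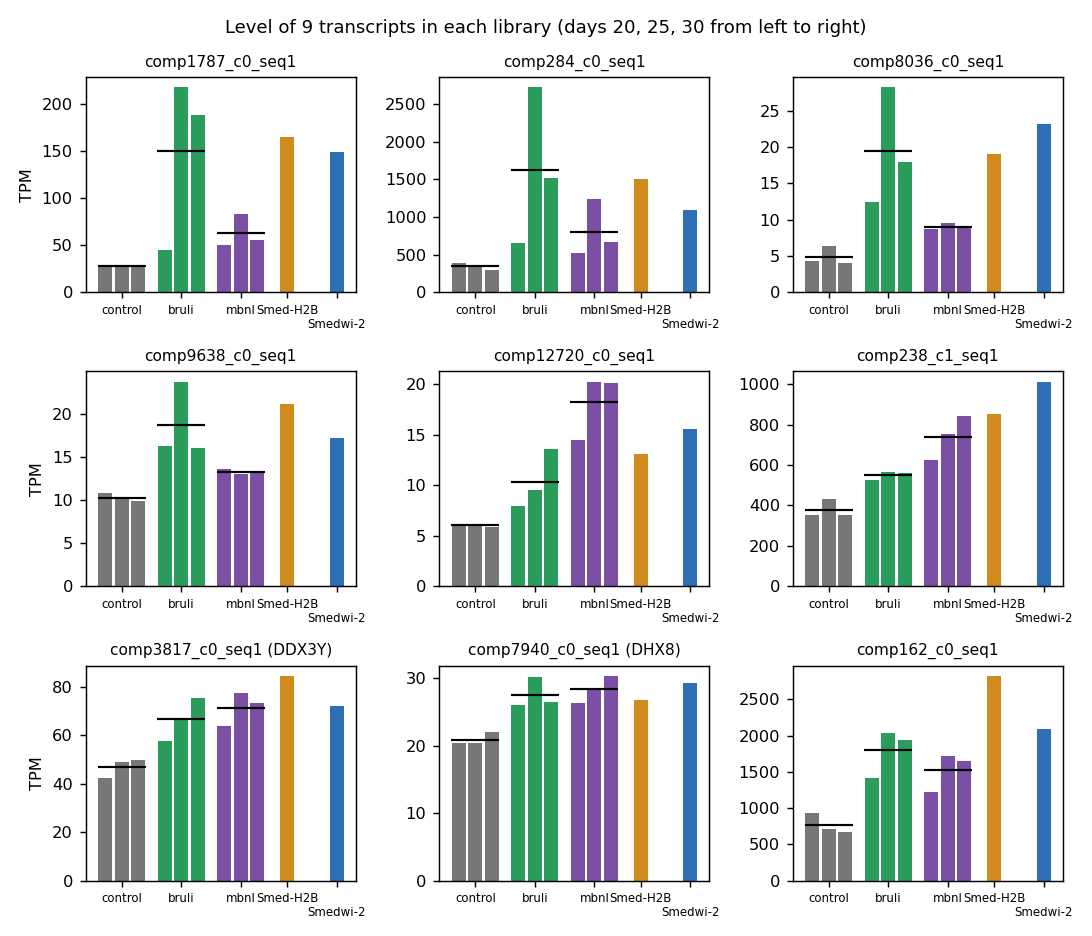
Level in TPM of 9 of the 74 transcripts in each library (bars; days 20, 25 and 30 from left to right within control, bruli and mbnl; black lines, mean of the 3 days). comp1787_c0_seq1 and comp284_c0_seq1 peak in the bruli library of day 25 at 218 and 2726 TPM, comp12720_c0_seq1 is higher after mbnl than after bruli knockdown, and comp7940_c0_seq1 stays between 25.9 and 30.3 TPM in all knockdown libraries.

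Membership depended on how libraries were scaled. With each library centred on its median, which shifted libraries by -0.14 to 0.12, 51 transcripts met the rule and 17 met it turned over. With quantile normalization these counts were 54 and 20. The share higher in all 8 among transcripts that moved one way in all was 91.4% as deposited, 75% after centring and 73.0% after quantile normalization. Of the 74 transcripts 33 met the rule after centring, 35 after quantile normalization, 29 after both and 35 after neither. Nearly all others stayed above the controls by less than the margin, as 70 of the 74 had every knockdown library above every control after centring and 72 after quantile normalization.

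Meeting the rule under every scaling favours wide margins, so differences larger than those of the 74 follow in part from this choice. The 29 transcripts that did so, chosen after seeing the data, are given as a description. Their medians were 0.51, 1.04 and 1.06 in the bruli libraries of days 20, 25 and 30, 0.62, 0.89 and 0.92 in the mbnl libraries, 0.95 in the Smed-H2B and 0.92 in the Smedwi-2 library. From day 20 to day 25, 28 of them went up after bruli and 26 after mbnl knockdown. They include comp8036_c0_seq1, comp12720_c0_seq1, comp1787_c0_seq1, comp284_c0_seq1, comp12455_c0_seq1, comp162_c0_seq1, comp442_c0_seq1 and comp1017_c0_seq1, whereas comp3817_c0_seq1 met the rule after centring only, comp238_c1_seq1 after centring only, comp7940_c0_seq1 after quantile normalization only and comp9638_c0_seq1 after neither.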

How the data were processed

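Whole-worm RNA (TruSeq RNA v2 libraries) was measured in 11 libraries. Per the methods and the submitters' processing notes, the authors trimmed reads with Flexbar, removed rRNA reads in silico and mapped the rest to a planarian transcriptome with Bowtie2 2.1.0, and HTSeq 0.6.1p1 counted reads per transcript; CASAVA 1.8.2 is also named. The deposited values are TPM, and every library sums to 1000000. How counts became TPM is not given in the sources used here. The study lists 7529400 to 12021874 reads for the 9 time course libraries. TPM keeps no count per transcript, so counting error is unknown.

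The analysis used log2(TPM+1), a pseudocount of 1, so folds of low transcripts are understated. The members and lists were chosen with earlier results of these data known. Sizes were given against the mean of the 3 controls. limma 3.58.1 in R 4.3.3 fitted group with day as a block to the 9 time course libraries, with a mean-variance trend and 4 residual degrees of freedom (two-sided, Benjamini-Hochberg over 15476 transcripts, 0.05). Slopes were fitted per group in 1 further model. The labels give the day that libraries share; deviations from group means correlated by 0.146 on average between libraries of the same day (-0.02 to 0.26, 9 pairs) and by -0.07 between days. P-values measure the spread between these libraries, which may be technical. On simulated data the direct fit found 77% of transcripts changed by 1 and 32% of those changed by 0.5, with 5 false calls. Only 100 transcripts were changed at each size, far fewer than were called in the real data. The simulated noise held no variation shared by day and no shift of whole libraries. These rates may therefore not hold for the real libraries. Named transcripts were the members named by the study's tables and the 2 largest called differences in each direction with the same sign on all 3 days. Transcripts of marker genes were identified with the help of a figure of the study. Figures were drawn with matplotlib 3.10.9. Alternatives covered the margin, pseudocount, filter, scaling, block, trend and each library and day.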

Additional observations from a re-analysis of the deposited data

Results flagged for a closer look

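The 4 results below differed between bruli and mbnl knockdown by limma's test of that difference over all transcripts. The same sign on all 3 days was a condition for naming them. comp8036_c0_seq1 was higher after bruli knockdown by 0.97 on the log2(TPM+1) scale, on all 3 days (adjusted p 0.00189 to 0.0908 over 21 alternatives, past the threshold in 19). comp9638_c0_seq1 was higher after bruli knockdown by 0.44, on all 3 days (adjusted p 0.0160 to 0.365, past the threshold in 10 of 21). comp12720_c0_seq1 was lower after bruli knockdown, with a difference of -0.78, on all 3 days (adjusted p 0.00313 to 0.108, past the threshold in 19 of 21). comp238_c1_seq1 was lower after bruli knockdown, with a difference of -0.41, on all 3 days (adjusted p 0.00763 to 0.121, past the threshold in 14 of 21). With 3 libraries of different days per group, outlying libraries were not looked for by a rule.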

How the results depend on the processing

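The number of transcripts higher in all 8 knockdown libraries (74) was 712 with no margin and 2 with a margin of 0.5. It was 513, 223 and 150 without the libraries of days 20, 25 and 30, 119 without the Smed-H2B and Smedwi-2 libraries, and 74 to 203 with each library left out in turn, since fewer libraries make the rule easier to meet; the highest came without the control of day 20. The number lower in all 8 (7) was 188 with no margin, 0 with a margin of 0.5, 4 with a pseudocount of 5, 19 with no filter, 4 with a minimum of 1.5 in every library, 17 with median centring, 20 with quantile normalization, 110, 41 and 34 without days 20, 25 and 30, and 7 to 45 with each library left out. The median difference from control was 0.69 for Smed-H2B and 0.63 for Smedwi-2 with a pseudocount of 5, and 0.70 for Smedwi-2 with quantile normalization; with 1 control left out it was 0.70 to 0.77 for Smedwi-2.

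Transcripts of the 74 called higher after bruli than after mbnl knockdown (2) numbered 0 with no filter, 7 with median centring, 7 with only the bruli and mbnl libraries in the fit, 1 with no trend, 15, 0 and 1 without days 20, 25 and 30, and 1 to 12 with each library left out (12 without the bruli and 10 without the control library of day 20). Those called lower (2) numbered 0 with no filter, 1 with median centring, 0 and 1 without days 25 and 30, and 1 to 3 with each library left out. Without the replicate block for day the counts among the 74 were 2 and 2, for the same transcripts. Over all transcripts the calls were then 676 higher and 2768 lower, beside 811 and 3105 with the block. The slope test called 0 under every alternative run. The difference of comp3817_c0_seq1 turned to 0.073 with median centring. That of comp7940_c0_seq1 turned to 0.13 with median centring, 0.094 with quantile normalization, 0.026 without the bruli library of day 30, 0.00296 without the mbnl library of day 30 and 0.034 without day 30, with -0.11 to 0.026 over the libraries left out in turn; neither was called. The cause of these changes was not tested. The study lists 7529400 to 12021874 reads for the 9 time course libraries, but the reads behind each TPM value are unknown here. Having 1 library per group and day limits every step between days.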
